A study of Homo sapiens with 6 samples.

Results

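The transcripts of 36 DNA damage repair and checkpoint genes were followed in HepG2, a human hepatoblastoma line, across an siRNA and a TGF-beta time course. The genes were listed by name from what they do, and gene lists were chosen with earlier results of these data known. A probe set named by 1 gene symbol was found for 33 of the 36, among 19775 such genes on the array, and the probe set with the highest mean signal stood for each gene. Of the 33, 32 had a mean signal over the 6 arrays above the floor of 12.9 and entered the tests, among 11921 genes. FANCB was the gene under it, with signals of 3.2 to 21.7, and BRCA2, FANCA and FANCD2 were not analysed here. Of the 32, 31 were above the floor on all 6 arrays, and XRCC3 was below it on 1.

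An siRNA is a short RNA that lowers the transcript it matches, and the cells carried either a control one (siControl) or one aimed at HNF4A (siHNF4a), a liver nuclear receptor. TGF-beta, a cytokine that signals through Smad proteins, was then given at 3 ng/ml for 1.5 or 24 h, and the cells at 0 h had none. There were 6 combinations with 1 Affymetrix array each and no replicates, and the labels do not say whether arrays of 1 siRNA shared a transfection. All arrays come from 1 cell line, each arm has 1 siRNA label, and every array after 0 h is of cells with the cytokine, so the effects of TGF-beta and of time in culture cannot be told apart. Values are MAS5 signals, scaled intensities with no unit, and a signal of 1 probe set cannot be set against that of another.

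Homologous recombination copies an intact sister chromatid to mend broken DNA, the Fanconi anaemia pathway releases crosslinked strands at replication forks, and excision and mismatch repair replace damaged or mispaired bases. The kinases ATM and ATR sense breaks and stalled forks and pass the signal to CHEK2 and CHEK1, which hold the cell cycle. Many of these genes are known to be transcribed mostly in cycling cells, through E2F factors, and TGF-beta is known to halt the cycle of many epithelial cells.

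Promoter windows of 5 genes that were lower at 24 h are shown. These windows were picked because 4 of them hold an E2F motif near the start, in the exact letters below, and 1, RAD51AP1, does not. They run from 100 bases before an annotated start to 20 after it, 5′ to 3′ on the gene's strand, from RefSeq on GRCh38.p14. For EXO1 and UNG the start shown is one with the motif, and a window at another start held none. Capitals mark an E2F motif, TTTCCCGC, TTTCGCGC, TTTGCCGC or TTTGGCGC on either strand, and in RAD51AP1 the NF-Y motif CCAAT or its reverse. The RAD51AP1 window does hold gcgggaat, which differs by 1 letter from GCGGGAAA, the reverse of TTTCCCGC, and was not counted.
EXO1, chr1:241848104-241848223, + strand: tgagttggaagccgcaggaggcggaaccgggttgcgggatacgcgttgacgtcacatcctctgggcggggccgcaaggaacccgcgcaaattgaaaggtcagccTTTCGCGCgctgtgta
MSH6, chr2:47783045-47783164, + strand: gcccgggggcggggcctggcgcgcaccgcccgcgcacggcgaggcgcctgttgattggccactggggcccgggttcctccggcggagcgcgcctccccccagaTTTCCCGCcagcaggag
TOPBP1, chr3:133661922-133662041, - strand: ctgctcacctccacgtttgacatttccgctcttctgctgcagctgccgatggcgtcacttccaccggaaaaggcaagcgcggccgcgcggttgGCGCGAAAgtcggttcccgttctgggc
UNG, chr12:109098072-109098191, + strand: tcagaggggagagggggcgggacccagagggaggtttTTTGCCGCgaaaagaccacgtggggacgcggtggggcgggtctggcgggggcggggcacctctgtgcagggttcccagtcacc
RAD51AP1, chr12:4538790-4538909, + strand: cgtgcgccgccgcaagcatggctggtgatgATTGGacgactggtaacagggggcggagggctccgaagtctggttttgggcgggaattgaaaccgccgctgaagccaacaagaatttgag
RefSeq windows from 250 bases before to 50 after a start were held for 33 of the 36 genes, 49 windows in all, and 11 of the 49 (22.4%) held an E2F motif against 3.31% of all 35116 windows. By gene that was 10 of 33, against 6.45% of the tested genes with a window. Of the 16 genes with a window that fell at 24 h (below) 4 held it, EXO1, MSH6, TOPBP1 and UNG, and of the 13 tested genes that did not fall 4 held it, CLSPN, MDM2, XPC and XRCC2. The other 2 of the 10, FANCA and FANCD2, were not analysed on the arrays. CCAAT stood in 55.1% of the 49 windows, against 34.6% of all windows and 35.2% of those of tested genes. The CHR motif of late cell cycle genes, TTTGAA or TTTAAA, stood in 22.4%, against 24.0% of all windows and 17.3% of those of tested genes, so its direction turned with the background. These are matches of letters, and no binding was measured.

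The arrays had a median signal of 12.4 to 13.3 and 49.1% to 50.7% of the probe sets above the floor. Each array was scaled to a trimmed mean of 100, and the floor is the median of all signals. Similar values were thus largely set in advance and are no check of the arrays. A ribosomal RNA control probe set read 8600 on the siControl array at 0 h and 69.8 to 736.5 on the other 5 arrays. Calls of the genes named that were lost without that array are given both ways. Differences between single arrays that use it have no such alternative. The 8 hepatocyte markers, such as albumin and AFP, were above the floor on all 6 arrays. Of 11 measured blood, endothelial and fibroblast markers 5 had a mean above the floor, CD3E, CD14, HBB, PECAM1 and PDGFRB. CD14 and PECAM1 were above it on all 6 arrays. Summed signals were 129.5 to 361.6 for the 11 and 44155 to 51859 for the hepatocyte markers. These sums are over different probe sets and do not measure shares of cells. PTPRC, VWF, CDH5 and COL3A1 were below the floor on every array. HNF4A itself was not analysed here, which leaves the siRNA labels without a check.

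**Figure D1:**
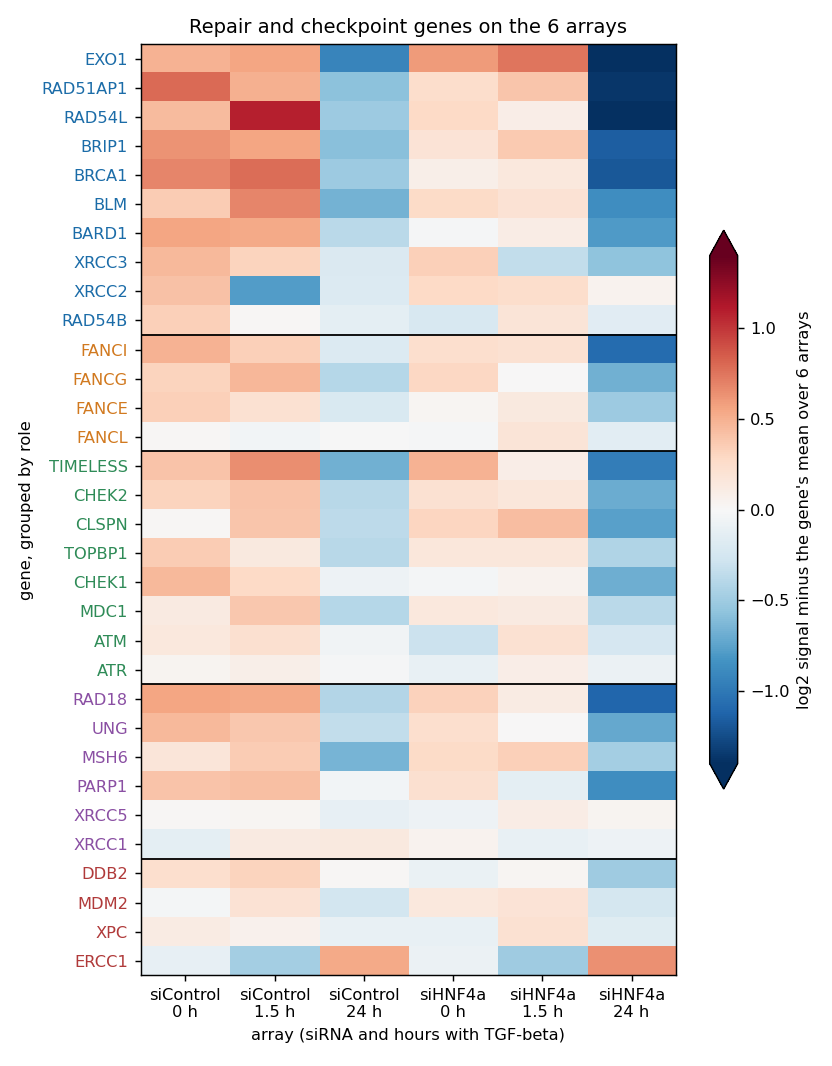
Signal of the 32 tested genes (vertical axis, grouped by role and coloured by group) on the 6 arrays (horizontal axis), as log2 signal minus the gene's own mean over the arrays, blue below and red above that mean. Most rows are blue in both 24 h columns, and ERCC1 is red there.

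After 24 h with TGF-beta most homologous recombination genes fell, among them EXO1, RAD51AP1 and BRCA1, as did 2 of 4 Fanconi genes, 4 of 8 checkpoint genes and 4 of 6 base, mismatch and strand-break repair genes. The break sensors ATM and ATR did not pass, and of the nucleotide excision genes ERCC1 rose. Of the 32 tested, 17 fell, 1 rose and 14 did not pass in limma (siRNA as a block, adjusted p under 0.05 over all genes), against 7.82% of all genes tested that fell and 7.22% that rose. The median log2 difference was -0.74, against -0.03 over all genes tested. Both 24 h arrays lay below the other 4 arrays for 21 of the 32, against 18.1% of all genes, and above them for ERCC1 alone, against 15.7%. Differences are log2 values, each with its standard error from limma. With 1 array per combination, that error measures how far the siRNA arms disagree over time, with 2 residual degrees of freedom, fewer than the 12.65 that limma takes from the spread of all genes.

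Among homologous recombination genes 7 of 10 tested fell, with a median of -1.15, and none rose. EXO1, the exonuclease that resects broken ends and also serves mismatch repair, read 118, 124 and 44.6 at 0, 1.5 and 24 h in siControl and 127, 142 and 30.7 in siHNF4a. Both 24 h arrays were far below the other 4, and it fell by 1.73 ± 0.25 (3.32-fold, limma adjusted p = 0.000325). RAD51AP1, a DNA-binding accessory factor of recombination, read 766.5, 624 and 297 in siControl and 524, 577 and 172 in siHNF4a. It fell by 1.49 ± 0.17 (2.80-fold, limma adjusted p = 4.67e-05). RAD54L, a DNA motor protein of recombination, read 90.3, 140 and 46.5 in siControl and 80.5, 70.7 and 25.2 in siHNF4a, and it fell by 1.32 ± 0.27. The 1.5 h values of RAD54L differed between the arms by about as much as its 24 h values did.

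The BRCA1 complex was lower as a group at 24 h. BRCA1, a ubiquitin ligase that steers breaks to recombination, read 262, 279 and 114.5 in siControl and 172, 180 and 71.4 in siHNF4a, and it fell by 1.23 ± 0.19 (limma adjusted p = 0.000485). Its obligate partner BARD1 read 185, 183 and 97.1 in siControl and 125, 135 and 73.1 in siHNF4a and fell by 0.85 ± 0.20. The BRCA1-bound helicase BRIP1 read 206, 194 and 88.5 in siControl and 152, 172 and 60 in siHNF4a and fell by 1.28 ± 0.21. On these probe sets, for all 3 genes the siHNF4a line ran below the siControl line at each time, and the 24 h arrays did not overlap the others. BLM, the helicase that undoes recombination intermediates, read 119, 149 and 58.7 in siControl and 112, 107 and 50.8 in siHNF4a, and fell by 1.08 ± 0.23. The recombination genes that did not pass were RAD54B (-0.20 ± 0.25), a relative of RAD54L, and the recombination mediators XRCC2 (-0.41 ± 0.33) and XRCC3 (-0.77 ± 0.34 or lower, with 1 array under the floor). Both mediators were dim, with signals of 20.9 to 47.8 and 10.2 to 26.1.

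**Figure D2:**
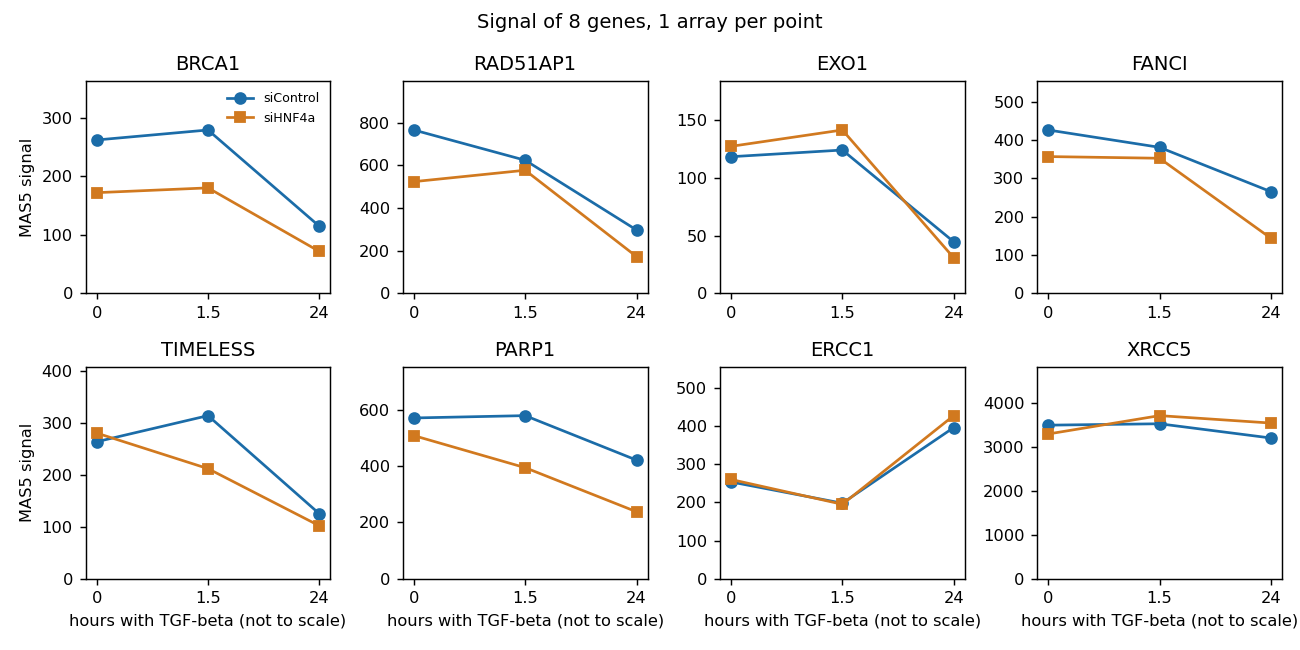
MAS5 signal (vertical axis from 0, its own scale in each panel) of 8 genes against hours with TGF-beta (spaced evenly, not to scale), 1 array per point, with circles for siControl and squares for siHNF4a. BRCA1, RAD51AP1, EXO1, FANCI and TIMELESS drop between 1.5 and 24 h in both arms, ERCC1 climbs from 198 and 195 to 396 and 428, and XRCC5 stays between 3208 and 3718.

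In the Fanconi anaemia pathway 2 of 4 tested genes fell. FANCI, which with FANCD2 forms the clamp that marks a crosslinked fork, read 426, 381 and 265 in siControl and 357, 352 and 143 in siHNF4a, and it fell by 1.00 ± 0.19. FANCG, a scaffold of the core complex, read 193, 215 and 118 in siControl and 190.5, 156 and 97.7 in siHNF4a and fell by 0.84 ± 0.20. The core member FANCE had -0.54 ± 0.24 (limma adjusted p = 0.158), with both 24 h arrays the lowest of its 6. FANCL, the ubiquitin ligase subunit, read 299 to 376 over all arrays and had -0.08 ± 0.16. The ligase subunit and the clamp thus gave different values within 1 pathway, and the difference between genes was not tested.

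Of 8 checkpoint genes 4 fell and none rose. TIMELESS, which holds the replication fork together when it stalls, read 264, 315 and 125 in siControl and 281, 212 and 102 in siHNF4a and fell by 1.27 ± 0.20 (limma adjusted p = 0.000572). CHEK2, the kinase downstream of ATM, read 191, 202 and 117 in siControl and 179, 172 and 94.8 in siHNF4a and fell by 0.81 ± 0.19. TOPBP1, the activator of ATR, read 448.5, 384 and 267 in siControl and 392, 391 and 263 in siHNF4a and fell by 0.66 ± 0.15. CHEK1, the kinase downstream of ATR, was the gene nearest the threshold on its inner side, at 405, 359 and 281 in siControl and 292, 307 and 185 in siHNF4a, and it fell by 0.59 ± 0.17 (limma adjusted p = 0.0256). MDC1, the adaptor that spreads the break signal, was the nearest on the outer side at -0.53 ± 0.19 (limma adjusted p = 0.0835). CLSPN, the adaptor between ATR and CHEK1, had -0.72 ± 0.31. Other probe sets of these genes, 1 each above the floor, had -1.05 for MDC1 and -1.36 for CLSPN. The kinases at the head of the pathway showed small differences, ATM with -0.07 ± 0.20 and signals of 129 to 185, and ATR with -0.02 ± 0.17 and signals of 206 to 237.5. Other ATM probe sets above the floor, 3 of them, had 0.20 to 0.26.

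Among base, mismatch and strand-break repair genes 4 of 6 fell. UNG, the glycosylase that removes uracil from DNA, read 896, 848 and 514.5 in siControl and 771, 660 and 398 in siHNF4a and fell by 0.88 ± 0.13 (limma adjusted p = 0.000459). MSH6, a subunit of the main mismatch sensor, read 983, 1120 and 556 in siControl and 1053, 1098 and 631 in siHNF4a and fell by 0.78 ± 0.13. Its 24 h arrays did not overlap the others, and siHNF4a was not the lower arm. RAD18, the ligase that opens translesion synthesis at a stalled fork, read 70.8, 69.7 and 36.2 in siControl and 60.4, 52.3 and 22.4 in siHNF4a and fell by 1.20 ± 0.27. PARP1, the sensor of nicks, read 571, 579 and 421 in siControl and 508, 394 and 238 in siHNF4a and fell by 0.77 ± 0.17. Here the groups overlapped, since the siHNF4a 1.5 h array read below the siControl 24 h array. XRCC5, the larger Ku subunit of end joining, read 3208 to 3718 and had -0.01 ± 0.10. XRCC1, the scaffold of nick repair, read 65.3 to 78.5 and had 0.07 ± 0.25.

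ERCC1 was the 1 gene that rose. It encodes the partner of the nuclease XPF, which cuts on the 5′ side of a lesion in nucleotide excision repair, and read 254, 198 and 396 in siControl and 260, 195 and 428 in siHNF4a. Both arms dipped at 1.5 h and were highest at 24 h, and the rise over 0 h was 0.68 ± 0.16 (limma adjusted p = 0.0107). Its other probe sets above the floor had 1.02 and 0.19. The damage sensors XPC (-0.15 ± 0.20) and DDB2 (-0.31 ± 0.17) did not pass, nor did MDM2 (-0.31 ± 0.14), the ligase that degrades p53. All 3 of these are known p53 targets, and none was higher on average at 24 h. The other MDM2 probe sets disagreed, from -0.61 to 0.54.

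**Figure D3:**
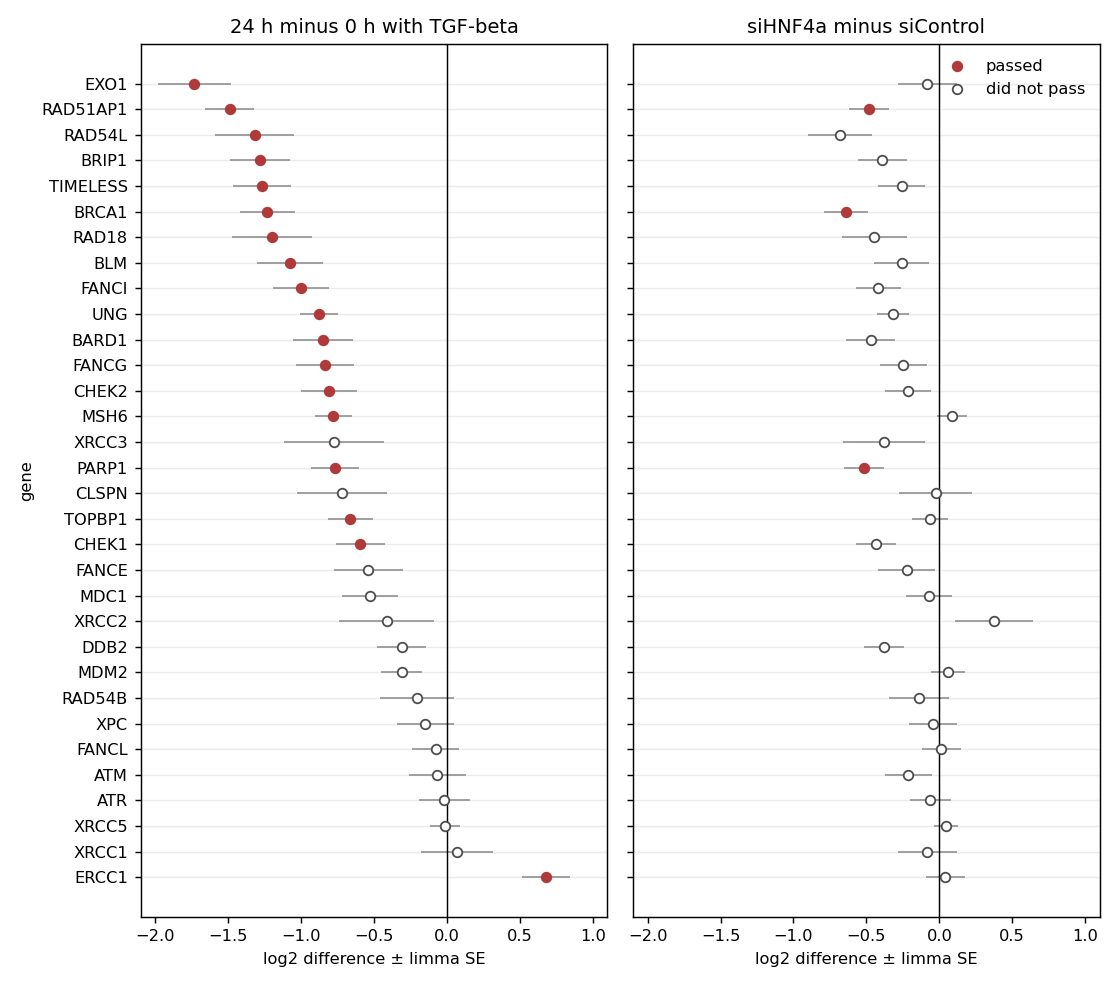
Log2 differences of the 32 genes (points) with limma standard errors (bars), 24 h minus 0 h over both siRNAs on the left and siHNF4a minus siControl over 3 times on the right, ordered by the left panel, filled where the limma adjusted p was under 0.05. On the left 17 filled points lie below 0 and 1 above, and on the right 3 lie below.

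Other probe sets could be read for some of the genes. Of those called at 24 h, 8 had 14 other probe sets above the floor, and all 14 had the direction of the one reported. With the siControl array at 0 h left out, 14 of the 32 fell, against 6.25% of all genes, and none was called higher. The 4 genes that did not pass then were BARD1 (-0.78), CHEK1 (-0.56), TOPBP1 (-0.57) and ERCC1 (0.68). Set against the 1.5 h arrays in place of 0 h, a choice made after seeing the data, 20 fell and ERCC1 rose, against 7.01% of all genes that fell and 6.38% that rose, and the 18 genes called against 0 h were among these 21. CLSPN (-0.97 ± 0.31), MDC1 (-0.64 ± 0.19) and MDM2 (-0.44 ± 0.14) were added. Both comparisons share the 24 h arrays. In limma without its intensity trend 8 fell, against 1.74% of all genes, and none rose. With a gene's probe sets averaged, CHEK1, MSH6 and PARP1 did not pass and 14 fell, against 3.77% of all genes.

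Cell cycle genes moved at the same time. Of 35 replication genes 31 fell and 1 rose at 24 h, with a median of -1.23, and all 25 mitosis genes fell, with a median of -0.97. Of all genes 7.82% fell and 7.22% rose. The part of the cell cycle genes in the falls above was not tested. In RNA from whole cultures fewer cycling cells and less RNA per cell cannot be told apart. Of the other cell type markers CD14 (1.39 ± 0.35) and PECAM1 (1.01 ± 0.27) rose at 24 h, 2 of the 5 tested, with summed signals of all 11 at 185 to 214 and then 362 in siControl and 129.5 to 192 and then 256 in siHNF4a, and their part was not tested either. Without the siControl 0 h array CD14 (1.20) and PECAM1 (0.54) did not pass.

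After 1.5 h with TGF-beta none of the 32 genes passed in limma, against 0.0839% of all genes that rose and 0.0168% that fell, and 1 had an unadjusted p under 0.05, as did 364 of the 11921 genes. The 1 was ERCC1, at -0.39 ± 0.16. The median of the 32 was 0.05, against -0.01 over all genes. The values ran from -0.61 ± 0.33 for XRCC2 to 0.29 ± 0.20 for ATM. XRCC2 read 47.8 and 20.9 at 0 and 1.5 h in siControl and 43.5 and 42.5 in siHNF4a, so the low value was that of 1 array, and it alone of the 32 differed by 2-fold between these arrays, against 0.721% of all genes that were lower by that much in siControl. Over both arms the genes that fell by 24 h gave values near 0 at 1.5 h, such as BRCA1 with 0.08 ± 0.19, EXO1 with 0.11 ± 0.25 and TIMELESS with -0.08 ± 0.20. For some the arms went opposite ways, such as TIMELESS with 0.25 in siControl and -0.40 in siHNF4a, and RAD54L with 0.64 and -0.19.

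The siRNA comparison set cells with the HNF4A siRNA against the control siRNA over the 3 times. BRCA1, PARP1 and RAD51AP1 were lower with it, and no repair or checkpoint gene among the 32 was called higher. Of the 32 genes 3 fell with siHNF4a and none rose in limma with time as a block, against 4.16% of all genes that fell and 3.90% that rose. BRCA1 differed by -0.61, -0.63 and -0.68 at 0, 1.5 and 24 h, and fell by 0.64 ± 0.15 over the 3 times (limma adjusted p = 0.0178). PARP1 differed by -0.17, -0.55 and -0.82 and fell by 0.52 ± 0.14 (limma adjusted p = 0.0305). RAD51AP1 differed by -0.55, -0.11 and -0.79 and fell by 0.48 ± 0.14 (limma adjusted p = 0.0443). On the reported probe sets all 3 genes were lower in siHNF4a at each of the 3 times. A change of the siRNA difference over time was called for none of them. The test called none of the 11921 genes, so it does not show that a difference was steady. CHEK1 (-0.43 ± 0.14, limma adjusted p = 0.063) was the nearest to passing of those that did not.

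The calls depended on the arrays included and on the processing. None of the 3 passed with a gene's probe sets averaged, with no intensity trend or with dim genes kept. Without the siControl 0 h array PARP1 and RAD54L (-0.94) passed and BRCA1 (-0.66) and RAD51AP1 (-0.45) did not, without the 1.5 h arrays RAD51AP1 alone passed, and without the 24 h arrays none did. With each array scaled to 1 median BRCA1 alone passed, and of all genes called 385 of 943 fell, against 496 of 961 in the reported fit. The other BRCA1 probe set had -0.30. It read 70.2, 95 and 42.9 in siControl and 75.3, 47.6 and 43 in siHNF4a, lower in siHNF4a at 1.5 h alone. In direction the genes leaned 1 way, with siHNF4a below siControl at all 3 times for 17 of the 32 and above it for none, against 23.7% and 17.5% of all genes. The median was -0.22, against -0.04 over all genes. The 17 included the recombination genes BRCA1, BARD1, BRIP1, RAD51AP1, RAD54L, XRCC3 and BLM, the Fanconi genes FANCE, FANCG and FANCI, and the kinases ATM, CHEK1 and CHEK2. Other probe sets above the floor disagreed in sign for BARD1 (-0.55 and 0.33) and ATM (-0.33, -0.11 and 0.09). MSH6 (0.08 ± 0.10), XRCC5 (0.04 ± 0.08) and MDM2 (0.06 ± 0.11) had values near 0. Mitosis genes, of which 8 of 25 fell with siHNF4a and none rose, moved beside them, and their part was not tested. In the same comparison 1 of the 5 tested markers of other cell types, CD14, fell by 1.18 ± 0.29, and of the 8 hepatocyte markers FGB rose (0.74 ± 0.11) and TTR fell by 0.52 ± 0.12. Their part was not tested.

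**Figure D4:**
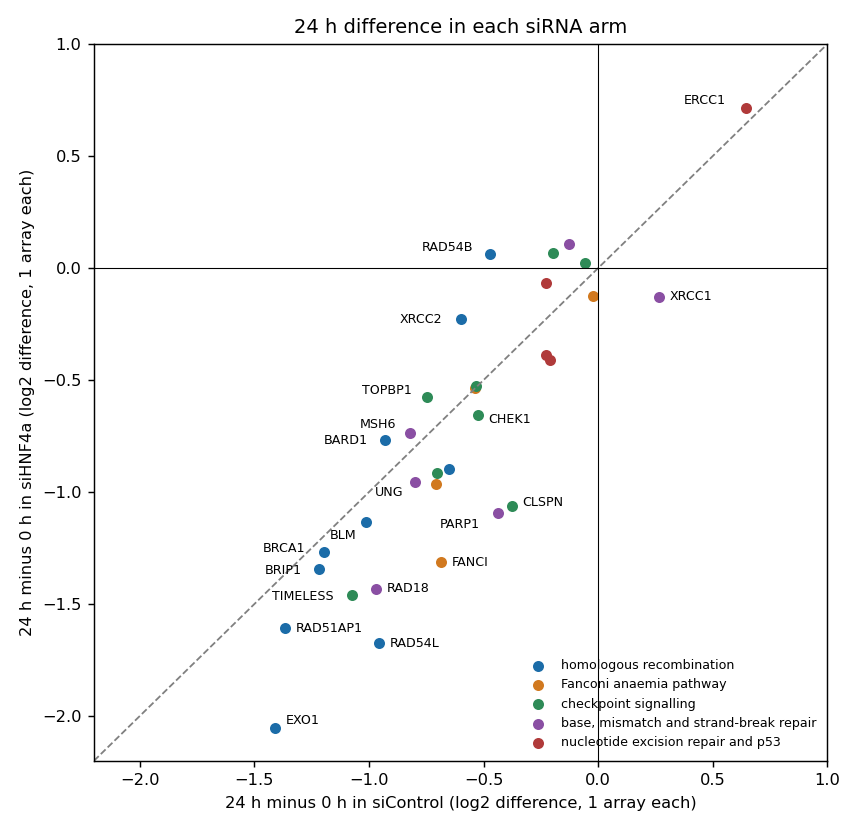
Log2 difference of 24 h minus 0 h in siHNF4a (vertical axis) against that in siControl (horizontal axis) for the 32 genes, 1 array per time and arm, coloured by role, with the dashed line where both are equal. Most points lie below the line, and EXO1 is the lowest at -2.05 against -1.41.

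Among genes below 0 h in both arms at 24 h, the difference was larger in siHNF4a for most, both of the 32 and of all genes. At 24 h 26 of the 32 were below 0 h in both arms, against 37.6% of all genes, and 19 of them by more in siHNF4a, against 23.4% of all genes (2784 of 4485 with the first property). By a 2-fold difference between single arrays, with no test, 6 of the 32 were lower in siControl (BRCA1, BRIP1, RAD51AP1, EXO1, BLM and TIMELESS), against 2.60% of all genes, and 11 in siHNF4a, against 4.61%. The 11 were the same 6 with RAD54L, FANCI, CLSPN, PARP1 and RAD18. In siControl RAD54L (-0.96) and RAD18 (-0.97) lay just short of 2-fold. The counts also depended on the probe set. In siControl another RAD18 probe set went from 72.9 to 33.1 and another CLSPN one from 35.6 to 12.2, both past 2-fold. A further RAD18 probe set went from 24.1 to 13.7, short of it. None was higher by 2-fold at 24 h, against 3.11% in siControl and 4.50% in siHNF4a, or at 1.5 h, against 0.973% and 0.537%. Between the siRNAs none of the 32 was lower by 2-fold at 0, 1.5 or 24 h, against 1.63%, 3.26% and 3.05% of all genes. The gene higher by 2-fold was XRCC2 at 1.5 h, against 1.54% then, 1.47% at 0 h and 2.23% at 24 h. FANCI differed by -0.68 in siControl and -1.31 in siHNF4a on the reported probe set, and PARP1 by -0.44 and -1.09. Another FANCI probe set read 236 and 123 at 0 and 24 h in siControl and 189 and 112 in siHNF4a. A further FANCI probe set read 186 and 111 in siControl and 164 and 108 in siHNF4a. Both had the smaller relative fall in siHNF4a, opposite to the reported one. The siHNF4a 24 h array held the lowest of the 6 signals for 22 of the 32, against 26.6% of all genes. The difference between the arms was tested in limma as the siRNA difference at 24 h minus its mean at 0 and 1.5 h, with 1 residual degree of freedom, and no gene of the 32 or of all 11921 passed. Of the 32, FANCI (-0.70 ± 0.29) had an unadjusted p under 0.05, as did 543 of all genes, and EXO1 had -0.69 ± 0.40. The same test for 1.5 h, added after seeing the data, called no gene, with 1 of the 32 and 918 of all under an unadjusted p of 0.05.

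Further genes of these pathways were taken from lists by function. At 24 h 7.82% of all genes fell and 7.22% rose, with a median of -0.03. Of 62 other repair genes tested 11 fell at 24 h, 1 rose and 50 did not pass, with a median of -0.17. The largest falls were those of the glycosylase NEIL3 (-1.35 ± 0.26), the helicase RECQL4 (-1.29 ± 0.27), UBE2T (-1.19 ± 0.15), which feeds ubiquitin to FANCL, and the end-joining polymerase POLQ (-1.09 ± 0.25). The gene that rose, ERCC4, named after its values were seen, encodes the XPF nuclease that pairs with ERCC1, and read 145, 166 and 232 in siControl and 114, 112 and 170 in siHNF4a, a difference of 0.63 ± 0.19 (limma adjusted p = 0.0388). The other ERCC4 probe set, dimmer at 23.6 to 50, had -0.07. Without the siControl 0 h array ERCC4 did not pass (0.55), and 8 of the 62 fell and none rose. Of 20 other checkpoint genes 8 fell and none rose, with a median of -0.32, led by the phosphatase CDC25A (-1.62 ± 0.22), the clamp subunit RAD9A (-1.53 ± 0.31), the histone H2AX (-1.33 ± 0.18) and the phosphatase CDC25C (-1.12 ± 0.23), and 5 fell without that array. With siHNF4a H2AX, whose phosphorylated form marks breaks, fell by 1.22 ± 0.14, from 1237, 1507 and 586 to 736, 476 and 245 at the 3 times. The other H2AX probe sets with a mean above the floor had -1.37 and 0.11 at 24 h and -1.19 and -0.51 for the siRNA. In the same comparison the glycosylase TDG (1.01 ± 0.14), REV3L of the translesion polymerase (0.62 ± 0.13) and the kinase WEE1 (0.62 ± 0.18) rose, and SLX4, a nuclease scaffold, fell by at least 1.38 ± 0.28. With siHNF4a 2 of the 62 rose and 1 fell, and 1 of the 20 rose and 1 fell. Of all genes 3.90% rose and 4.16% fell. The WEE1 difference came with opposite directions between 0 and 24 h, down from 513 to 371 in siControl and up from 584 to 976.5 in siHNF4a. Its siRNA-by-24 h term was not called. That test has 1 residual degree of freedom and called none of the 11921 genes, so it does not show a steady difference. None of the 62 or the 20 passed in limma at 1.5 h, and 0 of each had an unadjusted p under 0.05.

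**Figure D5:**
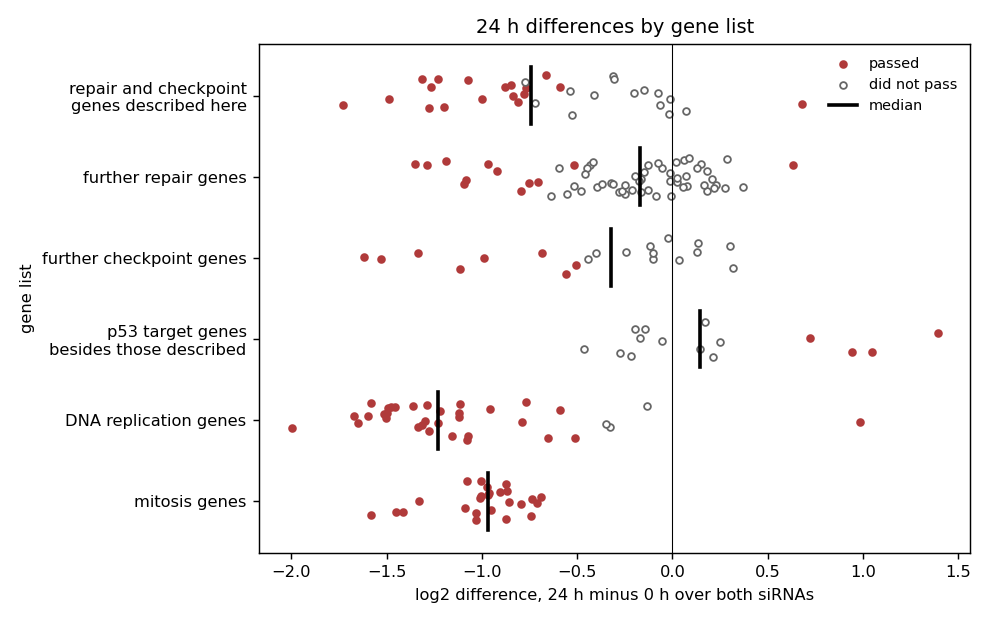
Log2 difference, 24 h minus 0 h over both siRNAs (horizontal axis), of each tested gene in 6 lists (vertical axis, points spread within a list for sight only), filled where the limma adjusted p was under 0.05, with the list's median as a bar. The medians are -0.74 for the 32 genes described here, -0.17 and -0.32 for further repair and checkpoint genes, 0.14 for p53 targets, -1.23 for replication and -0.97 for mitosis genes.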

How the data were processed

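Gene expression was read on 6 arrays, 1 for each siRNA and time. The deposited values are intensities, MAS5 signals computed by the authors with MAS5 5.0 and GCOS per the submitters' processing notes, and their trimmed mean was 100 on every array. Genes were named from the platform annotation, which gives 1 symbol for 41091 probe sets, and a gene's probe set was that with the highest mean signal. Signals under the floor, 12.9, the median of all signals, were set to it before log2. Limma 3.58.1 in R 4.3.3 (lmFit, eBayes with intensity trend) was fitted with siRNA and time as terms on the 11921 genes with a mean above the floor, with Benjamini-Hochberg adjustment at 0.05. The fit was tested on simulated data with independent noise and no outlying array. Of simulated 2-fold changes 75% were recovered for the siRNA, 75% for 24 h and 55% for 1.5 h. Gene lists, and the rule that names all 36 genes and up to 4 called genes per list and comparison, were chosen with earlier results of these data known. Precision is limited by there being 6 arrays. Alternatives were 2 scalings, 2 floors, a pseudocount, 2 probe set rules, no filter, no trend and leaving out arrays. Figures were drawn with matplotlib 3.10.9.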

Additional observations from a re-analysis of the deposited data

How the results depend on the processing

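The count of 18 genes called at 24 h was 18 with quantile normalization, median scaling, floors at the 40th and 60th percentiles and a pseudocount, 15 with probe sets averaged per gene, 8 when limma used no trend with intensity and 0 when dim genes were kept, where genes at the floor on every array add zero spreads. The 3 siRNA calls became 1 with median scaling and 0 with probe sets averaged per gene, with no trend and with dim genes kept. The range was 0 to 2 when arrays were left out, and such fits had fewer samples. The causes of these changes, including the loss of calls with dim genes kept, were not tested. Without probe sets ending in _x_at or _s_at 25 genes were tested and 14 called at 24 h, and BRCA1, CHEK2, TIMELESS and UNG could not be tested. Genes at 2-fold between siRNAs at 1.5 h numbered 2 and 0 with the 40th and 60th percentile floors, and between 1.5 and 0 h in siHNF4a 1 with the former. Over all genes, 961 siRNA calls became 227 with the mean of probe sets, 45 without the trend, 0 without the filter, 578 without the 1.5 h arrays and 242 without the 24 h arrays, and 1793 calls at 24 h became 806, 457 and 1 in the first 3 of these. The 12 calls at 1.5 h became 0 in those 3 and 26 without the siControl 0 h array. The siRNA-by-24 h term called 4 genes with the lower floor, 24 with the pseudocount and 639 without the filter, none among the 32. No called difference of the 32 genes changed sign under any alternative run. The siRNA and time terms block each other in every fit, and the labels give no replicate numbers for a further block.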

Other observations

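The p53 target genes besides those above gave other values than the repair genes, a difference that was not tested. Of 15 tested 4 rose at 24 h, none fell and 11 did not pass, with a median of 0.14. Of all genes 7.22% rose and 7.82% fell. The 4 were the kinase PLK3 (1.39 ± 0.29), TP53INP1 (1.05 ± 0.20), the RNA-binding ZMAT3 (0.94 ± 0.21) and the CDK inhibitor CDKN1A (0.72 ± 0.15). With siHNF4a TP53INP1 (1.15 ± 0.16) and ZMAT3 (0.82 ± 0.17) rose and the death receptor TNFRSF10B fell by 0.42 ± 0.11. Without the siControl 0 h array ZMAT3 at 24 h (0.74) and TNFRSF10B with siHNF4a (-0.31) did not pass, and 3 genes rose at 24 h.

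Of the replication genes CDC6, the licensing factor, had the largest fall at 24 h (-1.998 ± 0.174). RFC5, a clamp loader subunit named after its values were seen, was the 1 replication gene that rose (0.99 ± 0.16). Its reported probe set read 402 and 355 at 0 h and 664.5 and 842 at 24 h in siControl and siHNF4a. The other RFC5 probe sets had the opposite direction, with -1.04 and -1.41.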
